A study of Homo sapiens with 13 samples.

Results

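Ribosome biogenesis genes were followed in MCF10A cells, a human mammary epithelial line that was immortalized without an introduced oncogene and does not form tumours, as the cells left growth factor deprivation. The set has 40 members, chosen by name as factors that transcribe, modify, cut or assemble ribosomal RNA. The choice was made with earlier results of these data known. Each member was represented by the probe set that carried its symbol alone and was brightest over all arrays. Of the 40 members, 30 had such a probe set, and all 30 passed the filter on dim genes, among 11963 genes with a probe set of their own and 7731 genes tested. NOP56, DKC1, BOP1 and PPAN lay only on probe sets shared with another symbol. NOP58, DDX18, GNL3, NOB1, EBNA1BP2 and LYAR had no probe set among those used. These 10 members were not analysed here.

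Ribosomes are built in the nucleolus. RNA polymerase I copies the long ribosomal RNA precursor, small nucleolar ribonucleoproteins guide its methylation and pseudouridylation, and a large set of helicases, nucleases, GTPases and scaffold proteins cuts it and folds it into the small and large subunits. Growth factors raise this output in many epithelial cells, and MYC is a well known transcriptional activator of the genes involved.

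The cells had been deprived of serum for 24 h and were then left unstimulated (1 array) or treated with EGF, a growth factor that acts through the EGF receptor, or with a serum mixture for 20, 40, 60, 120, 240 or 480 min (1 array for each stimulus and time, 13 in all). The mixture, called serum here, held horse serum, insulin, hydrocortisone and cholera toxin. No culture or array was repeated at any time, so arrays of 20, 40 and 60 min are grouped as early and those of 120, 240 and 480 min as late, and the spread within these groups stands in for replicate error. That spread also holds change between the times of a group. Where the stimuli are compared at matched times, the spread is instead that of the EGF to serum difference between times. The labels do not say whether the times came from separate cultures, so the rest of the spread behind each p-value may be technical. The array used as EGF 20 min is labelled 20 min in its title and 40 min in its description, and the title was followed. Values are deposited MAS5 signals, intensities without a unit, and are printed in order of time (20, 40, 60, 120, 240 and 480 min). Differences are on the scale of log2(signal + 6) after quantile normalization, with the standard error (SE) from limma, and a gene was called when its Benjamini-Hochberg adjusted p over the 7731 genes was under 0.05.

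The arrays were scaled to one level by the authors, with a trimmed mean signal between 150.04 and 150.05. The serum 20 min array stood apart, with 33.3% of probe sets under a signal of 20 against 36.7% to 40.0% on the other 12 arrays. For the actin control probes the ratio of 3' to 5' signal lay between 1.31 and 1.79. Basal epithelial keratins were bright on every array (KRT5 from 3823.2 to 6184.8, KRT14 from 4862.9 to 6975). The 4 basal markers with a probe set of their own, of 6 listed, all passed the filter. Of 6 luminal markers 4 also passed it, KRT18 (2615.7 to 3768), KRT8 (486 to 825.1), EPCAM (324.6 to 586.8) and GATA3 (94.6 to 245.3), while KRT19 lay between 0.6 and 5.2 and the estrogen receptor ESR1 between 1.8 and 25.3. Of 9 markers of leukocytes, endothelium and fibroblasts with a probe set of their own, 6 were under the filter. Among them were PTPRC (0.3 to 12.8), PECAM1 (2.3 to 27) and COL3A1 (0.4 to 15.8). The 3 that passed were CD14 (86.1 to 286.2), COL1A1 (22.4 to 77.7) and PDGFRB (7.7 to 33.6). The summed signal of all 9 was 286.5 to 479.8 on early and 188.9 to 306.1 on late arrays, most of it CD14. CD14 fell late by 0.79 (SE 0.15, adjusted p = 0.0219, limma). Late minus early values of the 3 ran from -0.79 to 0.23, so they did not share 1 direction. The part of the CD14 fall in the results that follow was not tested.

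Many promoters of the measured members held a short sequence that the choice of members did not use. The windows of RefSeq (GRCh38.p14) that run from 250 bases before to 50 bases after a transcription start were searched for CACGTG, the palindromic E-box that MYC with MAX and several other basic helix-loop-helix factors can bind. Being its own reverse complement, it reads alike on both strands. At least 1 match lay in the windows of 15 of the 26 tested members that had a window (57.7%), against 863 of 6457 tested genes (13.4%) and 7.26% of all 35116 windows. Of these matches 8, each shown with 12 bases on either side and with the motif in capitals, are printed to show how close to the start it lay.
PUS7: gtcgctgcgccgCACGTGtgcgagcccggc
GAR1: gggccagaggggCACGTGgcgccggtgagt
GNL2: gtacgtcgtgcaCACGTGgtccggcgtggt
FBL: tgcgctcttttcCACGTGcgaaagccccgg
DDX21: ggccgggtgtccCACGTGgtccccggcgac
RRP9: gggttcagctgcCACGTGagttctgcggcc
UTP18, upstream: gggagtgctggtCACGTGgcaagaggctgc
UTP18, downstream: gcagcgaggttcCACGTGagcgcctgcgtt

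The PUS7 stretch lies at chr7:105522226-105522255 on the minus strand, with its motif starting 29 bases into the transcript, counted as +1 at the first transcribed base. That of GAR1 is chr4:109815781-109815810 on the plus strand (+32), and that of GNL2 is chr1:37595917-37595946 on the minus strand (+4). The FBL stretch is chr19:39846356-39846385 on the minus strand (+7). The DDX21 and RRP9 motifs start before the first transcribed base of their window. They lie at -31 in chr10:68956604-68956633 on the plus strand and at -5 in chr3:51941892-51941921 on the minus strand. UTP18 has a motif at -89 in chr17:51260445-51260474 and another at +5 in chr17:51260538-51260567, both on the plus strand. A gene can have several windows (30 for the 26 tested members), and each position counts from the start site of the window that held the match. For GAR1 and DDX21 the gene record begins further upstream, at 109815510 and 68956170, so their matches lie inside the annotated gene. The same holds for the matches of BYSL and PES1. Of the 16 matches in tested members, 15 (93.8%) started within 50 bases of their window's start site. Downstream of it lay 12 (75.0%), with a median position of +10.5. Among 1045 matches in all tested genes, 38.8% lay within 50 bases and 10.6% downstream, with a median of -75. A match is a run of letters and not a measured binding site.

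**Figure D1:**
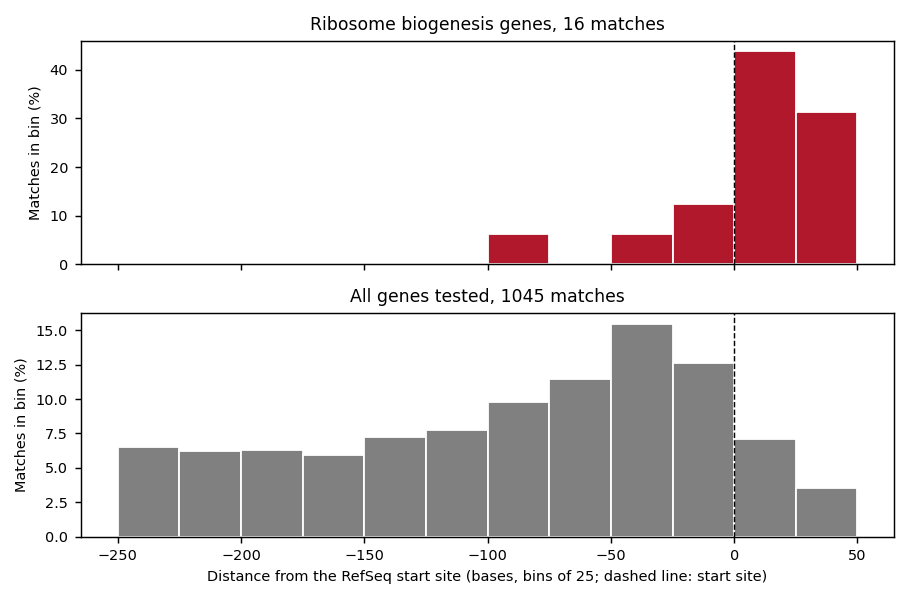
Share of CACGTG matches (%, vertical axis) in bins of 25 bases by distance from the RefSeq start site of the window (horizontal axis), for the 16 matches in tested ribosome biogenesis genes (top) and the 1045 matches in all tested genes (bottom). In the top panel 75.0% of matches lie downstream of the dashed start site, against 10.6% in the bottom panel.

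Across both stimuli, all 30 measured members had a higher mean on late than on early arrays, against 52.7% of all genes tested. The members were chosen with earlier results of these data known, so they are not an independent test of this contrast. Their median late minus early difference was 0.23 on the log2 scale, against 0.02 over all genes, and single members ranged from 0.04 to 0.54. Past the threshold were 3 of the 30, all higher late: NIP7, PUS7 and RRP1B. Among all genes, 1.68% were called higher and 1.79% lower, and no member was called lower. At an unadjusted p under 0.05, 15 of the 30 members were higher and 0 lower, against 957 higher and 890 lower of 7731 genes. The direction was shared widely, while only 3 of the 30 were called. Why the others were not called was not tested.

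NIP7, a factor of pre-ribosomal RNA processing encoded at chr16:69339772-69343106 (RefSeq, GRCh38.p14), had the largest difference of the 30. The NIP7 signal was 210.8 on the unstimulated array, 132.8, 151.9, 174.8, 212.0, 295.5 and 191.4 after EGF, and 218.9, 189.8, 187.7, 285.8, 305.8 and 278.7 after serum. All 3 late EGF arrays exceeded the 3 early ones and the same held after serum, but over both stimuli the groups overlapped, because EGF at 120 and 480 min lay under serum at 20 min. NIP7 rose by 0.54 (SE 0.11, 1.45-fold, adjusted p = 0.0291, limma). Its promoter window held no CACGTG.

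PUS7 (chr7:105456501-105522271) encodes a pseudouridine synthase that works without a guide RNA, mostly on transfer and messenger RNA rather than on the ribosomal precursor. The PUS7 signal was 443.6 on the unstimulated array, 331.6, 376.4, 363.8, 473.8, 529.3 and 507.3 after EGF, and 416.2, 364.5, 353.2, 464.6, 585.8 and 658.8 after serum. Every late array was above every early array, from 464.6 to 658.8 against 331.6 to 416.2. It was the only measured member with such a separation after normalization (1 of 30, or 3.33%, against 1.15% of all genes). PUS7 rose by 0.50 (SE 0.09, 1.41-fold, adjusted p = 0.0219, limma).

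RRP1B (chr21:43659560-43696079) encodes a nucleolar protein of the RRP1 family, which also binds protein phosphatase 1 and chromatin. The RRP1B signal was 530.8 on the unstimulated array, 452.6, 396.6, 391.0, 435.5, 499.2 and 538.3 after EGF, and 469.5, 453.9, 469.2, 577.7, 661.4 and 717.2 after serum. After serum the late arrays all exceeded the early ones, whereas after EGF the 120 min array (435.5) lay under the 20 min array (452.6). RRP1B rose by 0.34 (SE 0.08, adjusted p = 0.0457, limma). A dimmer probe set of the same gene went the other way, with a difference of -0.11, and with the mean of both probe sets the value was 0.11 (adjusted p = 0.659).

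These 3 calls did not hold under every omission of an array. Without the EGF 20 min, serum 40 min or serum 240 min array, 0 of 30 members were called, and 1 was called without EGF 40, 240 or 480 min or serum 60 min. Without serum 120 min the count was 7. The share of all genes called on each omission is not given here. NIP7 lost its call in 5 of 13 omissions, PUS7 in 5 and RRP1B in 10, with values between 0.41 and 0.60 for NIP7, 0.43 and 0.57 for PUS7, and 0.11 and 0.38 for RRP1B over all alternatives run.

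**Figure D2:**
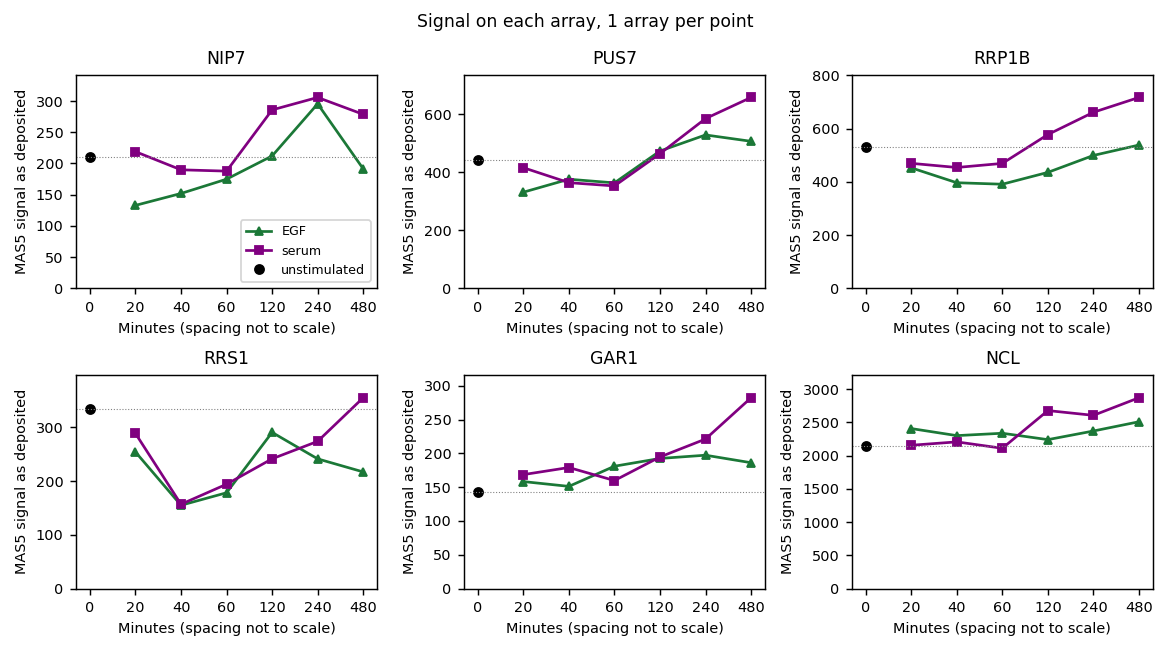
Deposited MAS5 signal (vertical axis, from 0) on each array by minutes after stimulation (horizontal axis, not to scale) for NIP7, PUS7, RRP1B, RRS1, GAR1 and NCL. Green triangles are EGF, purple squares serum, and the black point with the dotted line is the unstimulated array. PUS7 runs from 331.6 to 416.2 on early and from 464.6 to 658.8 on late arrays.

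The nucleolar scaffold and growth proteins had a median late minus early difference of 0.15 over 4 measured members, and 0 were called. At an unadjusted p under 0.05, 1 of the 4 was higher, against 957 of 7731 genes. No test compared this role, or those below, with all genes. Nucleolin, encoded by NCL, binds ribosomal RNA precursors and ribosomal chromatin. The NCL signal was 2151.5 on the unstimulated array, 2406.8, 2300.7, 2336.3, 2240.2, 2370.1 and 2509.2 after EGF, and 2155.6, 2206.5, 2110.2, 2677.3, 2605.6 and 2870.6 after serum. The late serum arrays, 2605.6 to 2870.6, were all above the early serum arrays, 2110.2 to 2206.5, while EGF showed overlapping ranges, and the joint difference was 0.17 (SE 0.07, adjusted p = 0.153). The NPM1 signal, that of the histone chaperone and shuttling protein nucleophosmin, was 6108.8 on the unstimulated array, 7006.6, 7474.3, 6320.6, 6757.5, 5340.3 and 6827.6 after EGF, and 4901.0, 5563.5, 5822.8, 8049.2, 6857.2 and 7467.8 after serum. After serum its late arrays again all exceeded the early ones, and after EGF its lowest value was at 240 min, giving 0.13 over both (SE 0.06, adjusted p = 0.225). The NOLC1 signal, for the Nopp140 chaperone of small nucleolar particles, was 1139.9 on the unstimulated array, 1134.9, 1065.9, 1119.4, 1043.0, 1181.9 and 1195.6 after EGF, and 1063.1, 1031.8, 894.8, 1093.7, 1008.2 and 1152.0 after serum. Early and late ranges of NOLC1 overlapped under both stimuli (0.06, SE 0.08). MYBBP1A, a nucleolar MYB-binding protein, differed by 0.24 (SE 0.12).

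Both polymerase subunits had small late minus early differences. POLR1B is the second largest subunit of RNA polymerase I, and POLR1C is shared by RNA polymerases I and III. The POLR1B signal was 108.6 on the unstimulated array, 75.6, 102.0, 78.1, 105.5, 76.8 and 82.5 after EGF, and 110.8, 62.4, 96.7, 102.0, 78.6 and 99.3 after serum. Low and high values alternated with no order by phase, and the difference was 0.10 (SE 0.14, adjusted p = 0.721). POLR1C differed by 0.09 (SE 0.09, adjusted p = 0.625).

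In the box C/D particle, which places 2'-O-methyl groups, FBL is the methyltransferase fibrillarin. The FBL signal was 778.6 on the unstimulated array, 872.6, 845.0, 845.0, 950.2, 897.6 and 976.9 after EGF, and 830.3, 804.7, 872.0, 839.9, 820.2 and 1010.2 after serum. All 12 stimulated arrays had a higher deposited signal than the unstimulated one, but early and late arrays lay close together (0.10, SE 0.07, adjusted p = 0.437). RRP9 is a protein of the U3 particle, which is needed for the first cuts toward the small subunit. The RRP9 signal was 73.4 on the unstimulated array, 71.6, 83.0, 82.3, 83.1, 82.1 and 92.9 after EGF, and 86.1, 52.3, 52.4, 72.8, 86.0 and 93.3 after serum. It was lowest on the serum arrays of 40 and 60 min, and its late minus early difference was 0.29 (SE 0.11, unadjusted p under 0.05, adjusted p = 0.141).

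The pseudouridylation group had the highest median, 0.38 over 4 measured members, with PUS7 called and all 4 past an unadjusted p of 0.05. Over all genes 1.68% were called higher, and 957 of 7731 were higher at that unadjusted p. GAR1 and NHP2 belong to the box H/ACA particle, which pseudouridylates ribosomal RNA and also forms part of telomerase. The GAR1 signal was 143.0 on the unstimulated array, 158.2, 151.1, 180.9, 192.4, 197.2 and 186.1 after EGF, and 168.5, 179.0, 159.7, 194.6, 221.1 and 282.2 after serum. In the deposited signals every late array (186.1 to 282.2) was above every early array (151.1 to 180.9), a separation that did not survive normalization, and the difference was 0.32 (SE 0.09, adjusted p = 0.0734). NHP2 differed by 0.24 (SE 0.09, adjusted p = 0.135). PUS1 modifies transfer RNA, in mitochondria as well as elsewhere. The PUS1 signal was 167.0 on the unstimulated array, 148.6, 97.4, 164.4, 154.4, 173.8 and 142.1 after EGF, and 160.4, 130.3, 86.1, 153.6, 197.8 and 248.1 after serum. EGF 40 min, at 97.4, and serum 60 min, at 86.1, were its lowest arrays, and the difference of 0.44 (SE 0.17) had an adjusted p of 0.156.

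Among the 8 measured small subunit factors the median was 0.15, with 0 called and 2 past an unadjusted p of 0.05, namely TSR1 and UTP18. At that cut 957 of 7731 genes were higher, so 2 of 8 is not read as a result about this role. TSR1 acts late in the maturation of the small subunit. The TSR1 signal was 340.2 on the unstimulated array, 191.9, 246.1, 219.5, 262.9, 293.8 and 243.2 after EGF, and 202.5, 221.2, 210.8, 295.9, 248.0 and 342.2 after serum. It was under the unstimulated value on every stimulated array except serum 480 min, and late minus early was 0.36 (SE 0.10, adjusted p = 0.0638). Its 2 other probe sets gave 0.52 and -0.04. UTP18 is a WD-repeat component of the small subunit processome, the large particle formed on the nascent precursor. The UTP18 signal was 475.7 on the unstimulated array, 428.7, 381.2, 384.1, 486.7, 474.5 and 519.7 after EGF, and 399.3, 384.1, 359.8, 417.6, 470.1 and 510.4 after serum. Late exceeded early within each stimulus, by 0.27 overall (SE 0.07, adjusted p = 0.0593).

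Other processome members differed less. The NOP14 signal was 167.8 on the unstimulated array, 184.0, 193.1, 153.8, 135.1, 157.6 and 169.1 after EGF, and 147.6, 123.3, 155.8, 191.9, 165.2 and 187.7 after serum. EGF arrays were highest at 20 and 40 min and serum arrays lowest at 40 min, so the joint value was 0.08 (SE 0.09). The UTP20 signal was 215.0 on the unstimulated array, 187.2, 185.2, 161.1, 177.0, 167.9 and 159.2 after EGF, and 170.9, 153.9, 142.3, 168.1, 157.6 and 212.1 after serum. Every stimulated array of UTP20 had a lower deposited signal than the unstimulated one, and its late minus early difference was 0.05 (SE 0.09). WDR3 and WDR43, both WD-repeat proteins of the processome, each differed by 0.12 (SE 0.10 and 0.09).

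BYSL and DDX10 were above the unstimulated array at every time. BYSL encodes bystin, which helps mature the small subunit. The BYSL signal was 139.6 on the unstimulated array, 153.0, 180.9, 207.9, 226.4, 210.9 and 172.6 after EGF, and 149.9, 184.2, 212.6, 208.7, 207.6 and 252.7 after serum. It already exceeded the unstimulated value by 0.64 on average at 60 min (SE 0.22, adjusted p = 0.584), so that late minus early was only 0.23 (SE 0.12, adjusted p = 0.278). DDX10 is a DEAD-box helicase of the processome. The DDX10 signal was 161.3 on the unstimulated array, 198.4, 197.5, 168.6, 200.9, 202.1 and 239.5 after EGF, and 172.0, 197.6, 166.7, 198.9, 170.3 and 254.6 after serum. Its highest values were at 480 min under both stimuli, and late minus early was 0.18 (SE 0.10, adjusted p = 0.317).

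The 9 measured large subunit factors had a median of 0.28, and NIP7 and RRP1B were the 2 called, with 6 past an unadjusted p of 0.05. Over all genes 1.68% were called higher, and 957 of 7731 were higher at that unadjusted p. NOP16 is a nucleolar factor of large subunit assembly. The NOP16 signal was 415.3 on the unstimulated array, 446.5, 450.2, 490.4, 501.5, 488.0 and 549.2 after EGF, and 357.9, 394.5, 405.9, 516.2, 505.2 and 569.7 after serum. All late serum arrays exceeded all early serum arrays, while EGF 240 min (488) lay just under EGF 60 min (490.4), and the difference of 0.28 (SE 0.07) missed the threshold narrowly (adjusted p = 0.0506). A further NOP16 probe set above the filter gave 0.36. GNL2 is a GTPase of the maturing large subunit. The GNL2 signal was 297.8 on the unstimulated array, 335.9, 309.1, 289.8, 305.7, 356.0 and 363.6 after EGF, and 311.8, 230.8, 236.2, 338.6, 351.6 and 444.2 after serum. Its low arrays were serum 40 and 60 min, and its difference was 0.31 (SE 0.10, adjusted p = 0.106).

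RRS1, which helps place the 5S particle in the large subunit, had the deepest early low. The RRS1 signal was 334.1 on the unstimulated array, 254.2, 155.0, 178.3, 290.7, 241.4 and 217.1 after EGF, and 288.7, 156.9, 194.2, 241.5, 274.0 and 355.2 after serum. Both 40 min arrays were low, at 155 and 156.9 against 334.1 before stimulation, a mean log2 difference of -1.03 (SE 0.26, unadjusted p = 0.00383, adjusted p = 0.384, limma with time as a factor). From early to late it differed by 0.39 (SE 0.17, adjusted p = 0.197). NOP2 methylates the large ribosomal RNA. The NOP2 signal was 294.8 on the unstimulated array, 232.6, 278.8, 278.1, 330.3, 334.4 and 270.1 after EGF, and 245.0, 245.2, 315.2, 229.9, 300.4 and 316.4 after serum. Its lowest array was serum 120 min, a late one, and its difference was 0.14 (SE 0.11).

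PES1 and WDR12, both subunits of the PeBoW complex, differed by 0.24 (SE 0.10, adjusted p = 0.163) and 0.04 (SE 0.08, adjusted p = 0.778). Their partner BOP1 is among the members not analysed here. MRTO4, which prepares the site of the ribosomal stalk, differed by 0.14 (SE 0.10). DDX21, a helicase that links RNA polymerase I transcription to rRNA processing, differed by 0.28 (SE 0.07, adjusted p = 0.0607), with late signals from 813.5 to 1012.2 and early signals from 738.3 to 821.3.

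**Figure D3:**
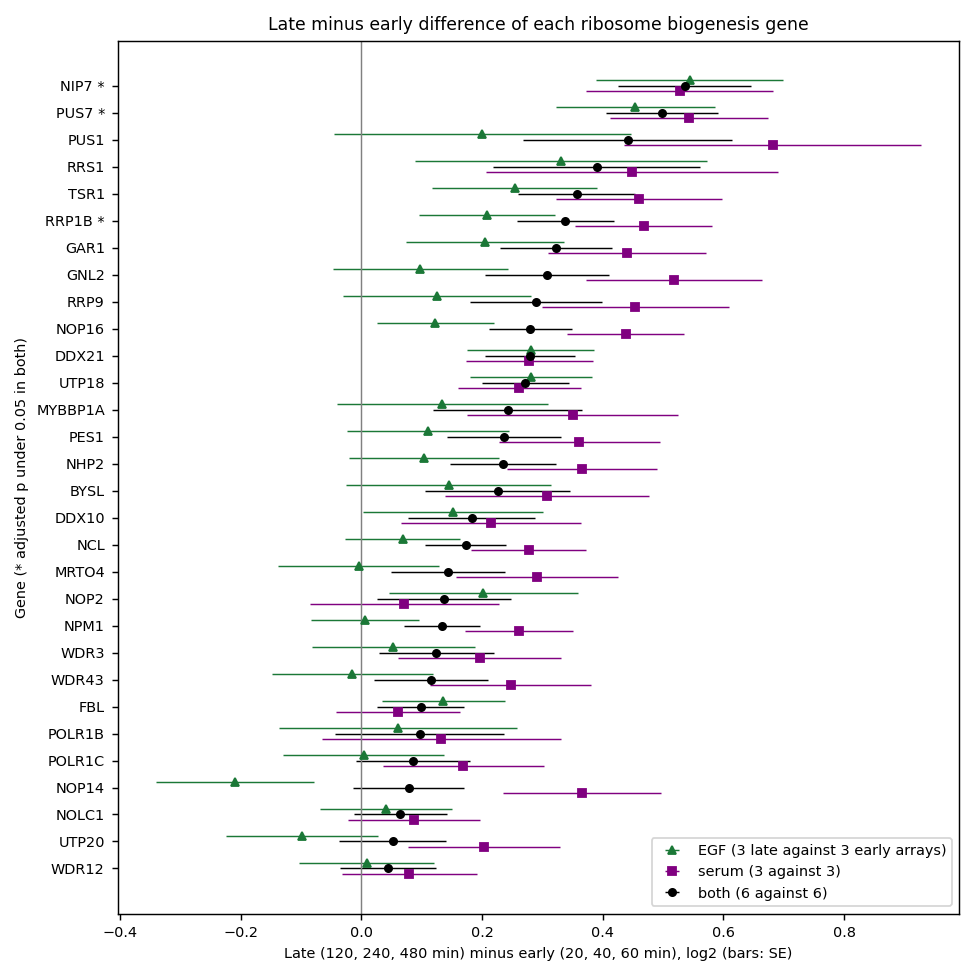
Late minus early log2 difference (horizontal axis) of each of the 30 measured genes (vertical axis), with SE as bars, for EGF (green triangles, 3 arrays against 3), serum (purple squares, 3 against 3) and both (black circles, 6 against 6). All black circles lie right of 0, from 0.04 (WDR12) to 0.54 (NIP7), and the asterisks mark the 3 genes with an adjusted p under 0.05.

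Within EGF alone, 26 of 30 members were positive from early to late, with a median of 0.12 against 0.02 over all genes. By limma 0 members were called, against 0.0776% of all genes called higher and 0.181% lower. At an unadjusted p under 0.05, 4 members were higher and 0 lower, against 575 higher and 544 lower of 7731 genes. With a trended, robust variance limma also called 0 members. The most positive members were NIP7 (0.54, SE 0.15, adjusted p = 0.185), PUS7 (0.45, SE 0.13, adjusted p = 0.189) and RRS1 (0.33, SE 0.24). The most negative were NOP14 (-0.21, SE 0.13) and UTP20 (-0.10, SE 0.13).

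Within serum, all 30 members were positive, with a median of 0.30 against 0.01 over all genes. An unadjusted p under 0.05 was reached by 16 members, all higher, against 779 higher and 782 lower of 7731 genes. Again 0 were called by limma, against 0.698% of all genes called higher and 0.634% lower, and the smallest adjusted p of a member was 0.0537 (NOP16). With trended, robust variances limma called 8 members, and without the serum 120 min array 3, with no share over all genes given for either. The most positive members were PUS1 (0.68, SE 0.25), PUS7 (0.54, SE 0.13, adjusted p = 0.0639) and NIP7 (0.53, SE 0.15, adjusted p = 0.0989). FBL (0.06, SE 0.10) and NOP2 (0.07, SE 0.16) had the smallest differences.

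The difference between the stimuli in this change was tested as an interaction, with time as a block. For the members the EGF change minus the serum change had a median of -0.21 against 0.01 over all genes, and 25 of 30 were negative. By limma 0 members were called, against 0% of all genes called higher and 0.0259% lower. An unadjusted p under 0.05 was reached by 3 members, all lower, against 431 higher and 431 lower of 7731 genes. NOP14 (-0.58, SE 0.21, adjusted p = 0.414) and PUS1 (-0.48, SE 0.37, adjusted p = 0.669) were the most negative, and NOP2 (0.13), FBL (0.08) and UTP18 (0.02) the most positive. The median moved to -0.07, with 19 of 30 negative, without the EGF 480 min array and to the same value without the serum 480 min array, since a time with 1 array left carries no pair.

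EGF and serum arrays were also compared directly at matched times. Over all 6 pairs of arrays, 14 members were higher and 16 lower in EGF, with a median of -0.01 against 0.01 over all genes. This split turned on single times: without either 480 min array 22 were higher and 8 lower (median 0.04), and without either 40 min array 8 were higher and 22 lower (median -0.05). None of the 30 was called by limma, against 0.0129% of all genes called higher and 0.116% lower in EGF. Lower at an unadjusted p under 0.05 were 2 of 30 members, against 855 of 7731 genes. Higher were 0 members, against 733 genes. NIP7 (-0.37, SE 0.10, adjusted p = 0.116) and RRP1B (-0.29, SE 0.08, adjusted p = 0.129) were lower in EGF at each of the 6 times. With trended, robust variances these 2 were called, with no share over all genes given for that model. The dimmer RRP1B probe set went the other way, with an EGF minus serum value of 0.07 over all times. RRP9 (0.16, SE 0.13), NOLC1 (0.11, SE 0.08) and NOP16 (0.10, SE 0.09) were the most positive.

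In the early pairs 21 members were higher in EGF, with a median of 0.06, and 0 were called by limma, with 0% of all genes called in either direction. At an unadjusted p under 0.05, 2 members were higher and 1 lower, against 539 higher and 576 lower of 7731 genes. RRP9 (0.32, SE 0.17), NOP14 (0.31, SE 0.15) and GNL2 (0.26, SE 0.11, adjusted p = 0.343) were the most positive, and NIP7 (-0.38, SE 0.15) and RRP1B (-0.16, SE 0.09) the most negative. In the late pairs 6 of 30 were higher in EGF and the median was -0.13, against 0.01 over all genes. Without either 480 min array 14 of 30 were higher and the median was -0.01. Again 0 were called by limma, against 0.246% of all genes called higher and 0.504% lower. Lower at an unadjusted p under 0.05 were 2 of 30 members, against 732 of 7731 genes. Higher were 0 members, against 727 genes. RRP1B (-0.42, SE 0.09, adjusted p = 0.0953) and NIP7 (-0.36, SE 0.15, adjusted p = 0.254) were the most negative, and NOP2 (0.11), FBL (0.10) and NOLC1 (0.09) the most positive. A stricter filter on dim genes or robust variances each gave 1 late call, RRP1B (adjusted p = 0.039 and 0.0114). No share over all genes is given for these 2 settings. With the mean of probe sets, 0 members were called in late pairs.

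**Figure D4:**
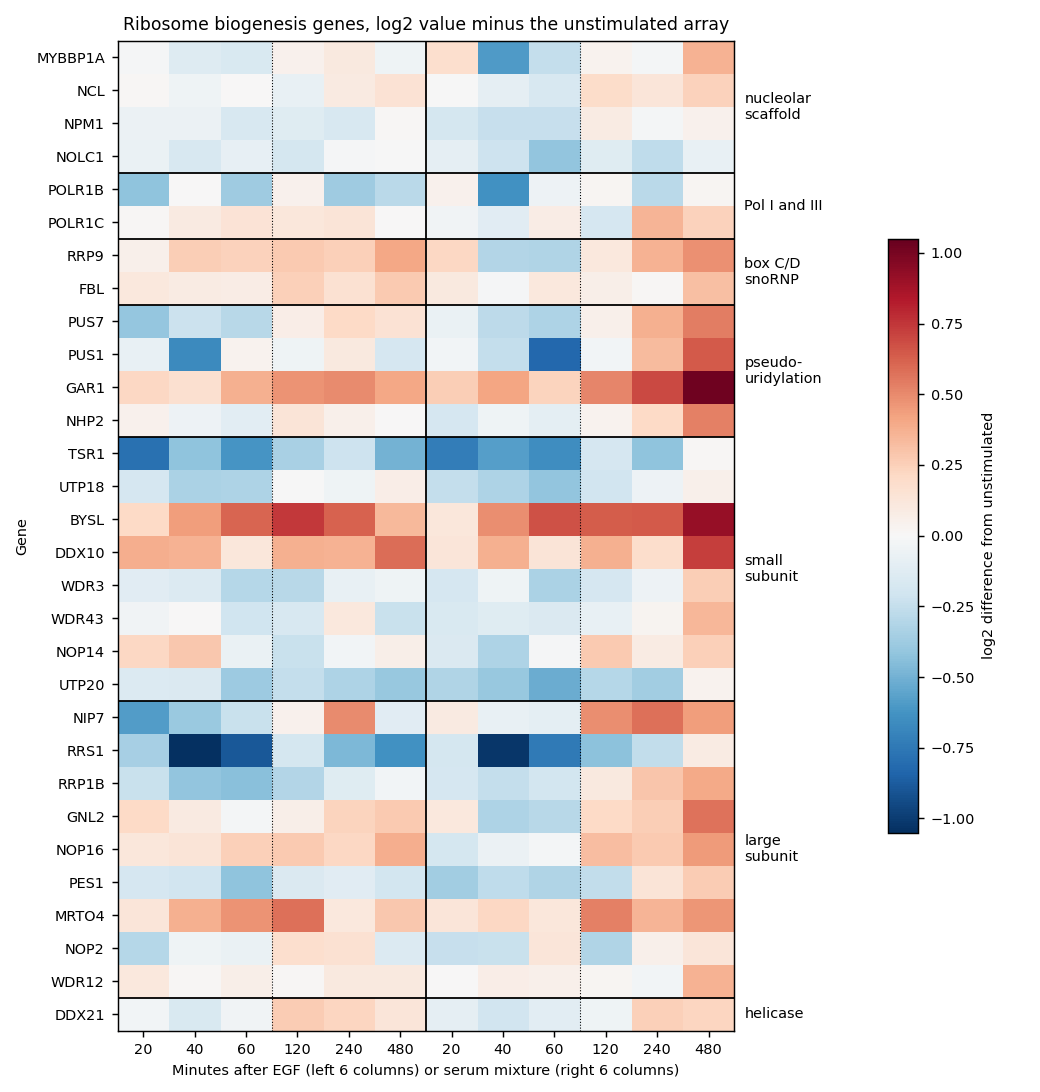
Log2 difference from the unstimulated array (colour, red above and blue below) of the 30 measured genes (rows, ordered by role) on the 12 stimulated arrays (columns, EGF left and serum right, dotted lines between 60 and 120 min). On serum 480 min 29 of 30 genes are above the unstimulated array, and on serum 40 min 5 are.

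Set against the unstimulated array, more members lay below it than above it on each early array, and more above than below on each late array. After EGF, 13, 13, 11, 17, 19 and 17 of the 30 were above it in order of time, and after serum 11, 5, 8, 18, 20 and 29. Over all genes the share above it was 49.0% to 53.7% on every array. On EGF 480 min the member median of 0.01 was under that of all genes, 0.03. The member median after EGF was -0.03, -0.05, -0.08, 0.04, 0.10 and 0.01, and after serum -0.08, -0.23, -0.16, 0.04, 0.13 and 0.34. All these values rest on the same single unstimulated array, so an error in it would shift a gene at every time alike.

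On the arrays of 240 and 480 min (4 arrays) minus the unstimulated one, 24 of 30 members were positive, with a median of 0.15 against 0.01 over all genes. By limma 0 were called, against 0.0517% of all genes called higher and 0.168% lower. The lone unstimulated array is assumed in this fit to vary like the other groups. GAR1 (0.65, SE 0.16, adjusted p = 0.151), BYSL (0.63, SE 0.23) and DDX10 (0.46, SE 0.21) were the most positive, and for each of them all 4 arrays were above the unstimulated one. RRS1 (-0.32, SE 0.32) and TSR1 (-0.28, SE 0.20) were the most negative. TSR1 was already low at 20 min, by -0.76 (SE 0.23, unadjusted p = 0.0102, adjusted p = 0.727, limma).

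**Figure D5:**
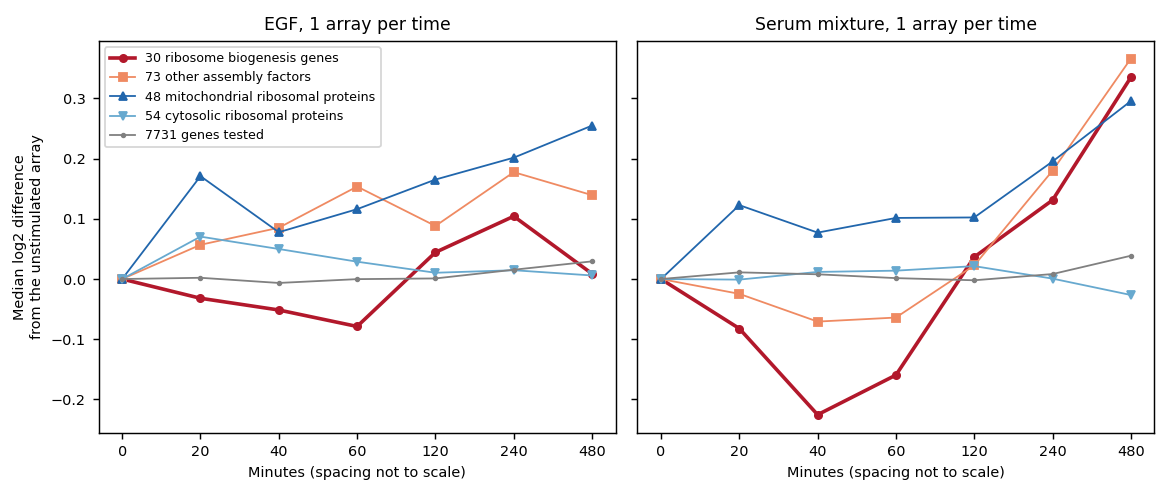
Median log2 difference from the unstimulated array (vertical axis) by minutes (horizontal axis, not to scale) for EGF (left) and serum (right), 1 array per point, for 30 ribosome biogenesis genes, 73 other assembly factors, 48 mitochondrial and 54 cytosolic ribosomal proteins, and 7731 genes tested. After serum the ribosome biogenesis line runs from -0.23 at 40 min to 0.34 at 480 min, while cytosolic ribosomal proteins stay between -0.03 and 0.02.

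Other genes of ribosome production moved unequally. Among 73 tested assembly factors outside the set, 82.2% were positive from early to late over both stimuli, with a median of 0.12. None of the 73 was called (16 higher and 1 lower at an unadjusted p under 0.05, limma), and RRP12 (0.49, SE 0.16) and DDX31 (0.43, SE 0.13) had the largest sizes. Over all genes 957 were higher and 890 lower of 7731 at that p, with 1.68% called higher and 1.79% lower. These shares apply to each list below over both stimuli. Within serum 87.7% of the 73 were positive, with a median of 0.18, and 3 were called higher, against 0.698% of all genes. These were RRP7A by 0.86 (SE 0.14, adjusted p = 0.0251), PWP2 by 0.65 (SE 0.13, adjusted p = 0.0405) and GTPBP4 by 0.57 (SE 0.12, adjusted p = 0.0441). In EGF the same 3 genes had values of -0.19, -0.10 and 0.07.

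Of 11 tested genes of the RNA polymerase I machinery, 90.9% were positive over both stimuli, with a median of 0.20. By limma 4 were higher and 0 lower at an unadjusted p under 0.05, against 957 higher and 890 lower of 7731 genes. The 1 called was RRN3, the initiation factor TIF-IA that couples polymerase I to growth signals (0.46, SE 0.11, adjusted p = 0.0466). Within serum POLR1E, a polymerase I subunit, rose by 0.72 (SE 0.15, adjusted p = 0.0478), against a value of 0.00 in EGF. Of 15 genes of the RNA polymerase III machinery, 73.3% were positive, with a median of 0.07 (2 higher and 1 lower at an unadjusted p under 0.05). GTF3C1, the largest subunit of TFIIIC, was the 1 called and fell by 0.36 (SE 0.07, adjusted p = 0.0261). POLR3F had a value of 0.49 (SE 0.17, adjusted p = 0.112). None of the 10 RNA exosome genes was called (1 higher at an unadjusted p under 0.05), although 80% were positive, with a median of 0.13. EXOSC4 (0.31) and EXOSC9 (0.27) had the largest sizes.

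Ribosomal proteins, the parts that these factors assemble, gave mixed values. Of 54 cytosolic ribosomal protein genes, 37.0% were positive, with a median of -0.02, and 0 were called by limma (1 higher and 4 lower at an unadjusted p under 0.05). RPLP2 (0.34, SE 0.31) and RPL27A (-0.25, SE 0.12) had the largest sizes. Of 48 mitochondrial ribosomal protein genes 81.3% were positive, with a median of 0.10 (11 higher and 2 lower at an unadjusted p under 0.05). The 1 called was MRPL58 (0.32, SE 0.08, adjusted p = 0.0448), which encodes a peptidyl-tRNA hydrolase within that ribosome. At that unadjusted p 957 were higher and 890 lower of all 7731 genes. No test compared these lists with the ribosome biogenesis genes.

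Among supply and translation genes, CTPS1, the cytidine triphosphate synthase, was the 1 of 16 nucleotide synthesis genes called (0.45, SE 0.10, adjusted p = 0.0356). Of these 16, 93.8% were positive, with a median of 0.15, and 6 were higher at an unadjusted p under 0.05. EIF4G2, a translation initiation factor related to eIF4G, was the 1 of 36 translation factors called (0.27, SE 0.06, adjusted p = 0.0402). Of these 36, 83.3% were positive, with a median of 0.08, and 7 were higher at an unadjusted p under 0.05. Of 16 cytosolic tRNA synthetases 0 were called by limma (2 higher and 2 lower at an unadjusted p under 0.05), with RARS1 (-0.33) and HARS1 (0.23) the largest in size. All genes gave 957 higher and 890 lower of 7731 at that p. The 1 tested snoRNA host gene, SNHG17, had a value of 0.20 (SE 0.15). Of 11 housekeeping genes 0 were called (3 higher and 1 lower at an unadjusted p under 0.05), with a median of 0.04, and GUSB (-0.25) and HPRT1 (0.23) had the largest sizes.

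MYC, whose product activates many genes of this kind, was called in none of the 8 comparisons by limma, nor at an unadjusted p under 0.05. The MYC signal was 2494.1 on the unstimulated array, 2958.8, 2855.1, 2786.3, 4354.8, 2139.0 and 2257.7 after EGF, and 2454.9, 3446.8, 3268.9, 2597.9, 3449.0 and 2649.2 after serum. Its highest array was EGF 120 min, and early and late ranges overlapped under both stimuli. From early to late it differed by -0.07 (SE 0.16, adjusted p = 0.811, limma) over both stimuli, by -0.02 in EGF and by -0.13 in serum. EGF minus serum was -0.09 over all times (SE 0.16), -0.15 early and -0.03 late, the interaction was 0.12 (SE 0.33), and the level at 240 and 480 min against the unstimulated array was -0.06 (SE 0.25). Of 8 tested genes of the MYC, MAX and MXD network 0 were called over both stimuli (1 higher and 1 lower at an unadjusted p under 0.05), and MXD3 (-0.51, SE 0.28) and MLXIP (0.33, SE 0.14) had the largest sizes.

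The 15 members with a CACGTG in their window had a median late minus early difference of 0.24, from 0.05 (UTP20) to 0.50 (PUS7). The 11 members with a window and no match had a median of 0.17, from 0.04 (WDR12) to 0.54 (NIP7). The ranges overlapped over nearly their whole length. NOLC1, PUS1, RRS1 and RRP1B had no window in the table.

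Several members had more than 1 probe set of their own. The 30 members had 42 such probe sets, of which 3 were under the filter. In the 6 genes with several above it (NPM1, NOLC1, POLR1C, TSR1, NOP16 and RRP1B), 6 of the 9 further probe sets were positive from early to late and 3 negative. NPM1 gave 0.11 and 0.08 on its further probe sets, NOLC1 0.21 and -0.00, and POLR1C 0.06. Averaging all probe sets of a gene left all 30 members positive but lowered the median to 0.18 and the calls to 2.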

How the data were processed

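Total RNA of MCF10A cells was labelled with biotin and hybridised to 13 Affymetrix arrays, 1 for each stimulus and time and 1 for unstimulated cells, per the labels' protocols. The deposited values are intensities made by the authors with MAS5 (version not given in the sources used here), per the submitters' processing notes. The authors scaled every array to one trimmed mean, as the values themselves show, so a change in total RNA per cell is not seen.

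Of 22277 probe sets, 62 were controls, 19064 had 1 gene symbol in the platform annotation, 1043 had several and 2108 had none. Through Entrez identifiers 19052 were matched to RefSeq and 0 symbols needed an update. Each gene took its brightest probe set by the mean over 13 arrays of log2(signal + 6). Array medians differed by 0.298, above a limit of 0.2, so arrays were quantile normalized. Genes under the 40th percentile of probe set means (log2 4.68) were left out, which kept 7731 of 11963 genes. Differences were tested with limma 3.58.1 (lmFit and eBayes) in R 4.3.3, with Benjamini-Hochberg adjustment over all genes and a threshold of 0.05. Residual degrees of freedom were 8 for late minus early, and 4 for the interaction and for EGF minus serum in early or late pairs. They were 5 for EGF minus serum over all times, 7 for the level at 240 and 480 min, and 5 for single times. Late minus early was fitted on all 13 arrays and the comparisons of the stimuli on the 12 stimulated arrays with time as a factor. The fit was run on simulated data with independent noise on each array and a constant late shift. The simulation held no change within the early or late times, so it does not check times standing in for replicates. Promoter windows were searched in Python 3.11.15.

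The members and gene lists were chosen with earlier results of these data known. Values on every array are given for members past the threshold in any comparison, otherwise for the 3 most positive and 2 most negative, and for NCL, NPM1, FBL and POLR1B. From other lists up to 3 genes past the threshold are named, otherwise the 2 largest in size. The alternatives were 10 settings (offset, normalization, filter, probe set rule, variance model, coding of time, both 20 min arrays left out) and 13 omissions of 1 array. The number of arrays limits the precision. In bulk RNA, fewer cells and less RNA per cell cannot be told apart.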

Additional observations from a re-analysis of the deposited data

How the results depend on the processing

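Over the 23 alternatives run for late minus early in both stimuli, 28 to 30 members were positive and the median lay between 0.17 and 0.26, but the number called higher, 3, moved. It was 0 with no filter on dim genes, 8 with a stricter filter, 10 with a variance trend and robust variances, and 0 without both 20 min arrays. Leaving out 1 array at a time gave 0 to 7. The share of all genes called under each alternative is not given here. These counts therefore do not show whether members gained more calls than other genes. For late minus early in serum, where 0 were called, the count was 2 with an offset of 24, 3 with the stricter filter, 8 with the variance trend and robust variances and 1 with a slope on log2 minutes, and omissions gave 0 to 3. For EGF minus serum the count called lower in EGF, 0, was 2 over all times with the variance trend and robust variances, and 1 in late pairs with that model and 1 with the stricter filter. Why the counts moved was not tested for any setting or omission. The interaction median of -0.21 became -0.07 without either 480 min array, and the members higher in EGF went from 6 to 14 of 30 in late pairs and from 14 to 22 over all times (8 without either 40 min array). No value reversed its sign in a call. Late minus early in 1 stimulus with time as a factor, and the level at 240 and 480 min without the unstimulated array, could not be fitted.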
